A study of Homo sapiens with 9 samples.

Results

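The genes described here are 38 genes of the lysosome and of autophagy, chosen by name: enzymes of the lysosomal lumen, proteins of its membrane, subunits of the proton pump, the transcription factors TFEB and TFE3, and autophagy genes. They were chosen with earlier results of these data known. Of these 38 genes, 37 are in the table of 16612 genes and all 37 were among the 16312 genes tested; CTSL was not analysed here. They were followed in HNT34, a human acute myeloid leukemia (AML) cell line with high expression of EVI1, the transcription factor encoded by MECOM. HNT34 cells carried a non-targeting shRNA (NT) or 1 of the EVI1-directed shRNAs, sh16 and sh87, and were harvested 3 days after selection. Each group held 3 libraries of polyA-selected RNA, and the NT cells differed from the others in the shRNA only, with no other allele or agent given in the labels. For the sh87 libraries a field of the labels carries the number 18, whereas the titles carry 87, which was used. The labels do not say whether the 3 libraries of a group came from separate cultures, so the p-values measure the spread between these libraries, which may be technical. The question asked of these genes was how their RNA levels differed between cells with EVI1-directed shRNAs and NT cells.

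Lysosomes are acidic organelles in which hydrolases break down proteins, glycans and lipids delivered by endocytosis and autophagy. The vacuolar ATPase (V-ATPase) pumps protons into the lumen, and heavily glycosylated membrane proteins such as LAMP1 line the inner face of the membrane. TFEB and TFE3 are basic helix-loop-helix factors that bind E-box elements in the promoters of many of these genes, and autophagy brings cytoplasmic cargo to the lysosome in vesicles made by the ULK1 kinase, phosphoinositide-binding proteins such as WIPI1 and ubiquitin-like proteins of the LC3 and GABARAP family.

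MECOM, the targeted gene, stood at 571, 504 and 440 CPM (counts per library size, scaled by edgeR's TMM method) in NT replicates 1, 2 and 3. It was at 145, 143 and 145 CPM with sh16 and at 109, 107 and 106 CPM with sh87. All 6 knockdown libraries were below all NT libraries, with a log2 fold change of -2.004 ± 0.14 (SE; adjusted p = 9.18e-07, edgeR's quasi-likelihood test with Benjamini-Hochberg adjustment over all genes, the test used throughout). The libraries held between 17096170 and 43502389 counts. The NT libraries were less alike than the others, with a biological coefficient of variation of 25% against 3.75% for sh16 and 6.95% for sh87. Mitochondrially encoded genes took 15.9%, 11.5% and 4.69% of the counts in NT replicates 1, 2 and 3, between 2.69% and 2.88% with sh16 and between 4.62% and 5.97% with sh87. Genes of high GC content also read lower in the NT libraries, relative to the mean of all 9 libraries. The fitted log2 deviation from that mean was compared between the 20% of genes with the lowest GC content and the 20% with the highest. It shifted by -1.25, -0.687 and -0.159 in NT replicates 1, 2 and 3, by 0.229 to 0.329 with sh16 and by 0.38 to 0.486 with sh87. These shifts are relative and do not give the trend of a library on its own. Values corrected for the length and GC content of the genes, an alternative added after the data had been seen, are therefore given. They stand beside results with both shRNAs together whose call or direction they change or whose value they move by more than 1.5 times. Single genes have no corrected value with sh16 or sh87 alone against NT. Whether those single-shRNA calls hold after the correction was not tested. Among 6 leukemic blast markers that had values, 3 fell with both shRNAs together, where 29.7% of all genes fell. With sh16 alone 3 fell, where 30.2% of all genes did, and with sh87 alone 5 fell, where 33.6% did. CD34, which marks immature blasts, went from 731 CPM in NT to 116 CPM with sh16 and 42.4 CPM with sh87 (means). Of 10 monocyte and macrophage markers 4 had values, and their summed level was 39.4 to 51.9 CPM in NT, 87.5 CPM in each sh16 library and 59.5 to 63.6 CPM with sh87, most of it ITGAM, an integrin chain, while CSF1R, the macrophage growth factor receptor, did not exceed 3.33 CPM in any knockdown library and LYZ, the lysozyme gene, did not exceed 3.12 CPM. Of these 4 markers, 2 rose and 1 fell with both shRNAs together, where 30.1% of all genes rose and 29.7% fell. With sh16 alone 3 rose and 1 fell, and with sh87 alone 2 rose and 1 fell. CD14 had no value here. T cell, B cell, megakaryocyte, and stromal and endothelial markers summed to at most 42.0, 48.5, 267 and 259 CPM in an NT library and at most 23.9, 6.18, 66.4 and 88.6 CPM in a knockdown library, and no erythroid marker had a value. The part of these markers in the results on lysosome and autophagy genes was not tested.

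With both shRNAs taken as 1 group against NT, 21 of the 37 genes rose and 3 fell at an adjusted p of at most 0.01, whereas 13 did not pass the test. Over all 16312 genes, 30.1% rose and 29.7% fell, so the lysosome and autophagy genes rose in 56.8% and fell in 8.11% of cases. Their median log2 fold change was 0.79, against 0.05 for all genes, and 0.63 after the length and GC correction, against -0.05 for all genes. At a change of at least 2-fold, 15 rose and 2 fell, where 21.0% and 17.1% of all genes did. The 6 knockdown libraries lay wholly above the 3 NT libraries for 24 genes and wholly below them for 4, and the libraries overlapped for 9; over all genes 33.9% lay above and 32.1% below. Each shRNA gave a similar count on its own, and both comparisons share the NT libraries. With sh16, 24 genes rose and 4 fell, where 29.8% of all genes rose and 30.2% fell. With sh87, 23 rose and 6 fell, where 34.3% rose and 33.6% fell. The summed level of the 37 genes was 2194, 2342 and 2588 CPM in NT replicates 1, 2 and 3, between 3517 and 3554 CPM with sh16 and between 3368 and 3480 CPM with sh87. In such bulk RNA, a change in the share of cells of a given state cannot be told apart from a change in RNA per cell.

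**Figure D1:**
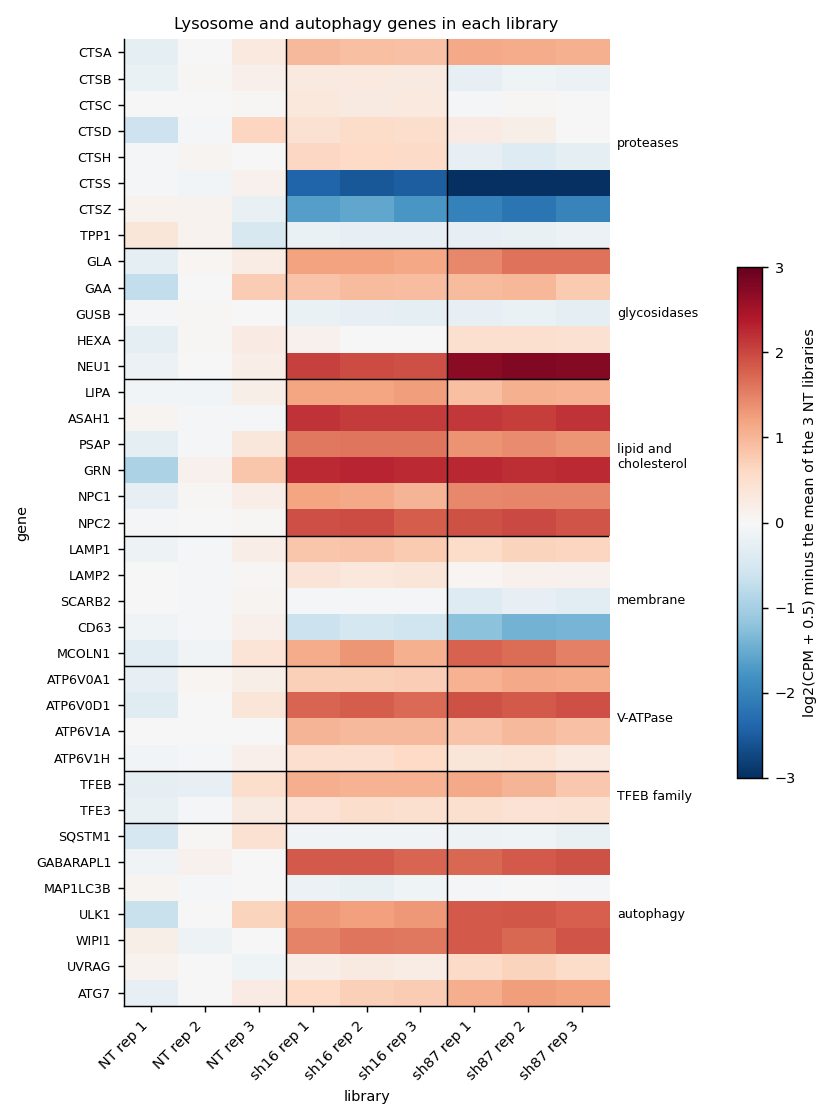
Each row is 1 of the 37 genes, ordered by role, and each column 1 library, with colour giving log2(CPM + 0.5) minus the mean of the 3 NT libraries (the scale ends at 3 in either direction, which CTSS exceeds with sh87). The rows of the lipid and cholesterol genes and of the V-ATPase are red in all 6 knockdown libraries, CTSS and CTSZ are blue, and GRN, GAA, CTSD and ULK1 differ among the NT libraries.

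The roles differed in how their genes moved. All 6 genes of lipid hydrolysis, its activators and cholesterol export rose, with a median log2 fold change of 1.71, and so did all 4 V-ATPase subunits (median 0.93), in either case also after the length and GC correction. Both TFEB family genes rose (median 0.74), but neither passed the test after that correction. Of 7 autophagy genes 4 rose and none fell (median 0.97), with UVRAG added to the risen genes and SQSTM1 falling after the correction. Of 5 glycosidases 2 rose and none fell (median 0.79), with GUSB falling after the correction. Of 8 proteases CTSA rose and 2 fell (median 0.11), with CTSC also rising after the correction. Of 5 membrane proteins 2 rose and 1 fell (median 0.24), with LAMP2 also rising after the correction. As summed levels, the lipid and cholesterol genes went from 247, 302 and 393 CPM in NT replicates 1, 2 and 3 to between 960 and 974 CPM with sh16 and between 887 and 918 CPM with sh87. The proteases summed to between 896 and 917 CPM in NT, 897 and 914 CPM with sh16 and 756 and 764 CPM with sh87, so that this sum did not separate sh16 from NT. Scaled to the length of 1 transcript, the highest mean levels in NT were those of CTSC (131 CPM per kb), TPP1 (76.3), CTSZ (70.4), CTSD (67.0) and PSAP (62.5), whereas with sh16 PSAP (185) stood above CTSC (161.5 CPM per kb), and both stood above GRN (96.6).

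The promoters of these genes are shown because the E-box CACGTG, within the longer element TCACGTGA, is the kind of sequence that TFEB and TFE3 are known to bind. Both factors are among the genes that rose, but neither passed the test after the length and GC correction. A link between these factors and the changes of the other genes was not tested. RefSeq promoters on GRCh38.p14, from 250 bases before to 50 bases after the first start listed, were found for 28 of the 37 genes. On either strand CACGTG was present in 8 of these 28, against 7.43% of 27305 promoters of all genes and 10% of the 10373 promoters of genes tested. The 8 were CTSA, CTSD, GAA, NEU1, LAMP1, CD63, MCOLN1 and ATP6V0D1. Of these, 5 rose, CD63 fell, and GAA and CTSD did not pass the test. Of all 37 genes 21 rose (56.8%), but this share includes 9 genes without a promoter and is not a like base for the 8. TCACGTGA, which contains CACGTG, was present in 5 (CTSA, GAA, LAMP1, MCOLN1 and ATP6V0D1), against 1.04% of all promoters and 1.92% of those of genes tested. The 250 bases before the start are given 5′ to 3′ on the strand of the gene, in lower case with CACGTG in capitals, for the 5 of these 8 that rose and for GAA, which shares the longer element but did not pass the test.
LAMP1 (chr13:113296989-113297238, plus strand): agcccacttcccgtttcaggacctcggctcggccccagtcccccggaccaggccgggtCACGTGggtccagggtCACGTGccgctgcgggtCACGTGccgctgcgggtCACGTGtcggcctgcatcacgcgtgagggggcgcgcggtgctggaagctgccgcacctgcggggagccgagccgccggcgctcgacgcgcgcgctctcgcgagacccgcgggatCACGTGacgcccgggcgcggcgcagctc
MCOLN1 (chr19:7522374-7522623, plus strand): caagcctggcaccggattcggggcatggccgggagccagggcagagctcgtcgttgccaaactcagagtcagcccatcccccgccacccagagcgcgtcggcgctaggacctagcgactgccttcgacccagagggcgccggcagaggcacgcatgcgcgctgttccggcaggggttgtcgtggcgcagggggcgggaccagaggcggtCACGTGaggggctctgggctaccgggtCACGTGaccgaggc
ATP6V0D1 (chr16:67481158-67481407, minus strand): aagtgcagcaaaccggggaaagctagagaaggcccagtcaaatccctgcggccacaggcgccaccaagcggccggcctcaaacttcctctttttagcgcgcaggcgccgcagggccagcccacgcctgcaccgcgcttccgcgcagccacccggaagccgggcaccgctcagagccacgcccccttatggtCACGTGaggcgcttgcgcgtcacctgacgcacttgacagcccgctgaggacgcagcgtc
CTSA (chr20:45891085-45891334, plus strand): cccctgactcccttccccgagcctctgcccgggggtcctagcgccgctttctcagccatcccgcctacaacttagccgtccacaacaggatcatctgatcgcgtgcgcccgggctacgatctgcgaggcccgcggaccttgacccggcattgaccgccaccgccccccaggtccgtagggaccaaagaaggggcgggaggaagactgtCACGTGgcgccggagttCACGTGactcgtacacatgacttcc
NEU1 (chr6:31862822-31863071, minus strand): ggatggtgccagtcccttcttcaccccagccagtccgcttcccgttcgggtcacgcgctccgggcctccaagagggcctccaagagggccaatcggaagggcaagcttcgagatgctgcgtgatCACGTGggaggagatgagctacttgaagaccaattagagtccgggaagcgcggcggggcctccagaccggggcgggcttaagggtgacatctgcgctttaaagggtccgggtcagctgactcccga
GAA (chr17:80101331-80101580, plus strand): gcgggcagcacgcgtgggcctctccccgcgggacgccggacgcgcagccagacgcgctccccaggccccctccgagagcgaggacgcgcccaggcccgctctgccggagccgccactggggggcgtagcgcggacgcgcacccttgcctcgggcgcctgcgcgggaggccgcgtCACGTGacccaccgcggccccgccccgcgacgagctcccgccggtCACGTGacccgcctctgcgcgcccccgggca

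LAMP1 held 6 copies of CACGTG, 4 of them spaced between 192 and 142 bases upstream of the start, 1 at 28 bases and a last one that begins 1 base before the start and is not in the printed stretch. MCOLN1, CTSA and GAA held 2 copies each, at 41 and 14, at 42 and 25 and at 76 and 31 bases upstream. ATP6V0D1 held 1 copy at 59 bases and NEU1 1 copy at 126 bases. The log2 fold changes of these 6 genes were 0.72 for LAMP1, 1.47 for MCOLN1, 1.81 for ATP6V0D1, 1.02 for CTSA, 2.43 for NEU1 and 0.79 for GAA. The number of copies thus did not order the genes by their change: LAMP1 with 6 copies changed less than NEU1 with 1. CD63 and CTSD, whose sequences are not printed, held 1 copy each, at 180 and 47 bases upstream. Their log2 fold changes were -0.93 and 0.25. GRN, NPC2, GABARAPL1 and WIPI1, which each rose more than 3-fold, held no CACGTG in this window, and neither did TFEB and TFE3 themselves. A match describes the letters of the window and not a bound site.

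Among the lipid genes, ASAH1, the acid ceramidase, showed one of the cleanest separations. It was at 8.43, 7.8 and 7.77 CPM in NT replicates 1, 2 and 3, at 37.9, 35.7 and 35.9 CPM with sh16 and at 36.2, 35.5 and 37.9 CPM with sh87. Levels with either shRNA were 4.56-fold those of NT (log2 fold change 2.19 ± 0.09 SE, adjusted p = 5.14e-08), and the lowest knockdown library was 4.22 times the highest NT library. NPC2, the luminal protein that hands cholesterol to NPC1, behaved alike, with 12.3, 12.6 and 12.9 CPM in NT, 49.8, 50 and 45.7 CPM with sh16 and 48.9, 51.3 and 47.9 CPM with sh87. Its log2 fold change was 1.96 ± 0.09 (adjusted p = 7.07e-08), with no overlap. NPC1, the membrane protein that exports cholesterol, was at 27.1, 33.1 and 37 CPM in NT, 73.6, 71.7 and 65.9 CPM with sh16 and 88.5, 89.9 and 90 CPM with sh87. It rose by less than NPC2 (log2 fold change 1.30 ± 0.14, adjusted p = 2.13e-05), and every knockdown library stood above every NT library.

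LIPA, the acid lipase that splits cholesteryl esters and triglycerides, was at 38.4, 38.9 and 46.1 CPM in NT, 94.3, 93.5 and 98 CPM with sh16 and 76.7, 86.7 and 85 CPM with sh87, and rose without overlap (log2 fold change 1.11 ± 0.11, adjusted p = 7.76e-06). PSAP encodes prosaposin, the precursor of the saposins that present lipids to their hydrolases, and had the highest mean level per kb of the 37 genes with either shRNA. In CPM it stood at 139, 162.8 and 213 CPM in NT, at 503, 513 and 511 CPM with sh16 and at 431, 454 and 424 CPM with sh87, a log2 fold change of 1.46 ± 0.15 (adjusted p = 1.01e-05). GRN encodes progranulin, a secreted and lysosomal glycoprotein that binds prosaposin. Its NT levels were spread over 22, 46.4 and 76.1 CPM, a 3.46-fold range, whereas the knockdown libraries were tightly grouped at 204, 210 and 203 CPM with sh16 and 206, 201 and 205 CPM with sh87. GRN rose (log2 fold change 2.09 ± 0.31, adjusted p = 0.000141), and its lowest knockdown library was 2.65 times the highest NT library. GRN has a GC content of 62.4%, and after the length and GC correction its log2 fold change was 1.5 (adjusted p = 1.57e-05).

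**Figure D2:**
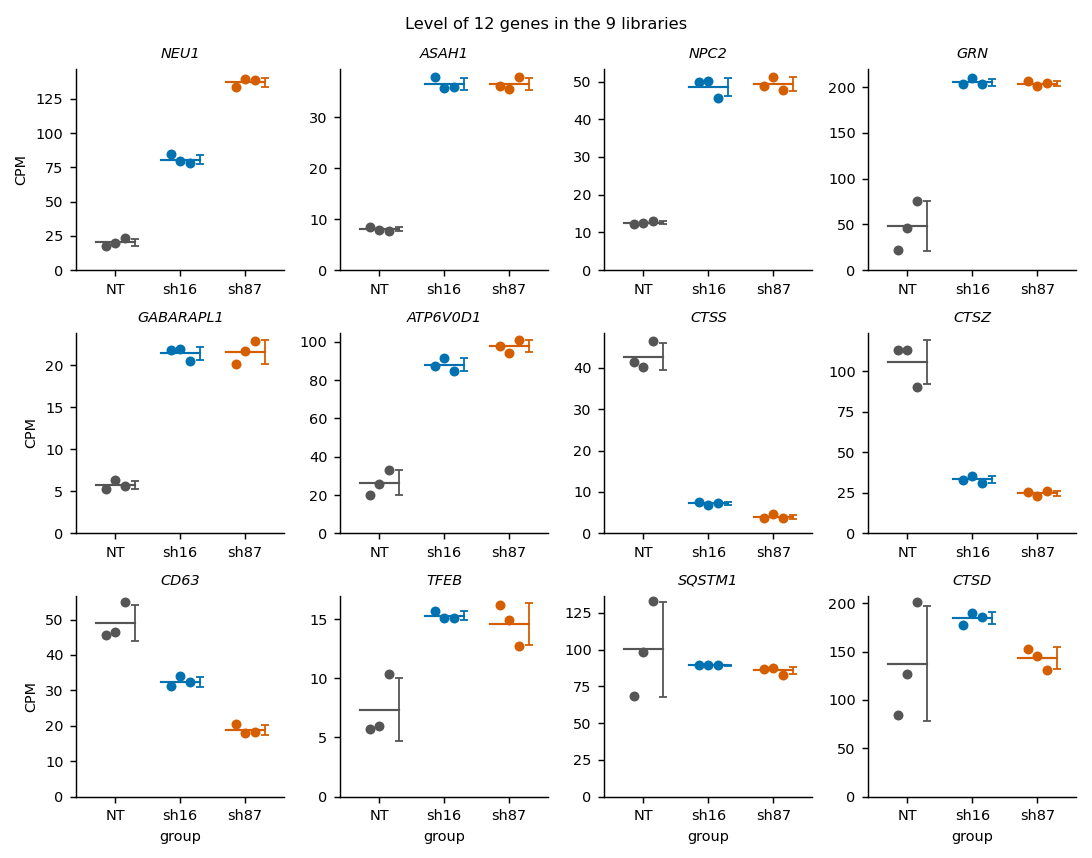
CPM of 12 of the genes in the 9 libraries (points, replicates 1 to 3 from left to right in each group), with the mean (line) and SD (bar, n = 3) of each group and axes that start at 0. NEU1, ASAH1, NPC2, GRN, GABARAPL1 and ATP6V0D1 lie above NT in all 6 knockdown libraries, CTSS, CTSZ and CD63 lie below, and the NT libraries of SQSTM1 and CTSD span the knockdown libraries.

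NEU1, the sialidase that removes terminal sialic acids in the lysosome, had the largest rise of the 37 genes. It was at 17.6, 19.8 and 23.2 CPM in NT, at 84.4, 79.6 and 77.9 CPM with sh16 and at 133, 139 and 138 CPM with sh87. Levels rose 5.38-fold with both shRNAs (log2 fold change 2.43 ± 0.26, adjusted p = 1.49e-05), and none of the 3 groups overlapped. NEU1 was also 1 of only 2 genes higher with sh87 than with sh16 (log2 fold change 0.77 ± 0.09, adjusted p = 0.000588). GLA, the alpha-galactosidase that is deficient in Fabry disease, was at 9.98, 12.7 and 14.2 CPM in NT, at 28.5, 28.7 and 27.6 CPM with sh16 and at 33.7, 38.8 and 38.7 CPM with sh87, and rose (log2 fold change 1.41 ± 0.17, adjusted p = 3.4e-05). Its groups did not overlap.

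The other 3 glycosidases did not pass the test with both shRNAs together. GAA, the acid alpha-glucosidase, was at 13.9, 23.1 and 39.8 CPM in NT and between 40.9 and 46.9 CPM in the knockdown libraries, so that NT replicate 3 all but reached them. Its log2 fold change of 0.79 ± 0.25 had an adjusted p of 0.0165. Without NT replicate 1 it was 0.49 (adjusted p = 0.0335), without NT replicate 3 it was 1.25 (adjusted p = 0.000147), and after the length and GC correction it was -0.06 (adjusted p = 0.592), with a GC content of 64.8%. GUSB, the beta-glucuronidase often used as a reference gene, was at 34.3 to 36.8 CPM in NT and 29.1 to 31.3 CPM in the knockdown libraries, and HEXA, the alpha chain of beta-hexosaminidase, at 49.4 to 70.5 CPM in NT, 59.2 to 64.9 CPM with sh16 and 81.8 to 83.7 CPM with sh87. With both shRNAs together the log2 fold change of GUSB was -0.24 (adjusted p = 0.0158), with -0.49 after the length and GC correction (adjusted p = 0.00018) and -0.28 without NT replicate 1 (adjusted p = 0.00938), both of which pass the test. That of HEXA was 0.26 (adjusted p = 0.165), and 0.12 without NT replicate 1 (adjusted p = 0.538). With single shRNAs GUSB fell (-0.24 with each, adjusted p = 0.00967 with sh16 and 0.00963 with sh87). HEXA rose with sh87 (0.46, adjusted p = 0.00496), and with sh16 its log2 fold change was 0.02 (adjusted p = 0.865).

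The proteases contained the strongest falls. CTSS encodes cathepsin S, a cysteine protease that trims the invariant chain of MHC class II in antigen-presenting cells. It was at 41.4, 40.3 and 46.4 CPM in NT, at 7.66, 6.92 and 7.29 CPM with sh16 and at 3.62, 4.56 and 3.71 CPM with sh87, with no overlap between any of the groups. Levels fell to 13.2% of NT (log2 fold change -2.92 ± 0.24, adjusted p = 2.56e-06), and sh87 was lower than sh16 (-0.88 ± 0.11, adjusted p = 0.000779). CTSZ, a carboxypeptidase, was at 113, 113 and 90.1 CPM in NT, at 33.1, 35.5 and 31.2 CPM with sh16 and at 25.4, 22.7 and 26 CPM with sh87. CTSZ fell to 27.5% of NT (log2 fold change -1.86 ± 0.15, adjusted p = 1.97e-06), again without overlap.

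CTSA, the serine carboxypeptidase that protects NEU1 in a shared complex, rose with both shRNAs, from between 15.4 and 23.3 CPM in NT to between 35 and 41.8 CPM in the knockdown libraries (log2 fold change 1.02 ± 0.14, adjusted p = 7.86e-05). Other cathepsins moved apart with the 2 shRNAs. CTSH, an aminopeptidase, was at 33.1, 36.5 and 34.7 CPM in NT, at 54, 52.6 and 52.1 CPM with sh16 and at 29.4, 26.4 and 28.6 CPM with sh87. CTSH thus rose with sh16 (log2 fold change 0.60 ± 0.07, adjusted p = 6.13e-05) and fell with sh87 (-0.31 ± 0.07, adjusted p = 0.00353), and the difference between the shRNAs passed the test (-0.91 ± 0.07, adjusted p = 0.000106). It was the only 1 of the 37 genes called in opposite directions with sh16 and sh87, and with both together its log2 fold change was 0.22 (adjusted p = 0.456), or 0.12 after the length and GC correction (adjusted p = 0.68).

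CTSC, the dipeptidyl peptidase that activates granule serine proteases in myeloid cells, was at 242, 242 and 252 CPM in NT, at 308, 298 and 300 CPM with sh16 and at 241, 249 and 248 CPM with sh87. It rose with sh16 (log2 fold change 0.30 ± 0.05, adjusted p = 0.000733), while with sh87 the log2 fold change was 0.00 ± 0.05 (adjusted p = 0.943) and the libraries overlapped those of NT. With both shRNAs together it was 0.16 (adjusted p = 0.195), and 0.34 after the length and GC correction (adjusted p = 0.0045). CTSB, a cysteine protease with endo- and exopeptidase activity, was at 48.9, 58.2 and 63.3 CPM in NT, at 68.9, 69.1 and 68.5 CPM with sh16 and at 47.6, 51.9 and 49.7 CPM with sh87. It did not pass the test against NT with either shRNA (adjusted p = 0.0233 with sh16 and 0.086 with sh87), nor with both together (log2 fold change 0.06, adjusted p = 0.731; 0.04 after the length and GC correction, -0.05 without NT replicate 1 and 0.13 without NT replicate 3), but was lower with sh87 than with sh16 (-0.47 ± 0.09, adjusted p = 0.00549).

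CTSD, the aspartic protease, and TPP1, a tripeptidyl peptidase, were not called in any comparison, and their NT libraries were far apart. CTSD was at 84.2, 127 and 202 CPM in NT replicates 1, 2 and 3, a range that took in all 6 knockdown libraries (131 to 190 CPM). Its log2 fold change was 0.25 ± 0.23 (adjusted p = 0.346), -0.02 without NT replicate 1 (adjusted p = 0.948), 0.62 without NT replicate 3 (adjusted p = 0.0141) and -0.44 after the length and GC correction (adjusted p = 0.0119). TPP1 was at 334, 281 and 185 CPM in NT, with the order of the libraries opposite to that of CTSD, and at 217 to 228 CPM in the knockdown libraries (log2 fold change -0.27 ± 0.15, adjusted p = 0.129). Without NT replicate 1 the log2 fold change of TPP1 was -0.08 (adjusted p = 0.608), and without NT replicate 3 it was -0.49 (adjusted p = 0.000624).

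**Figure D3:**
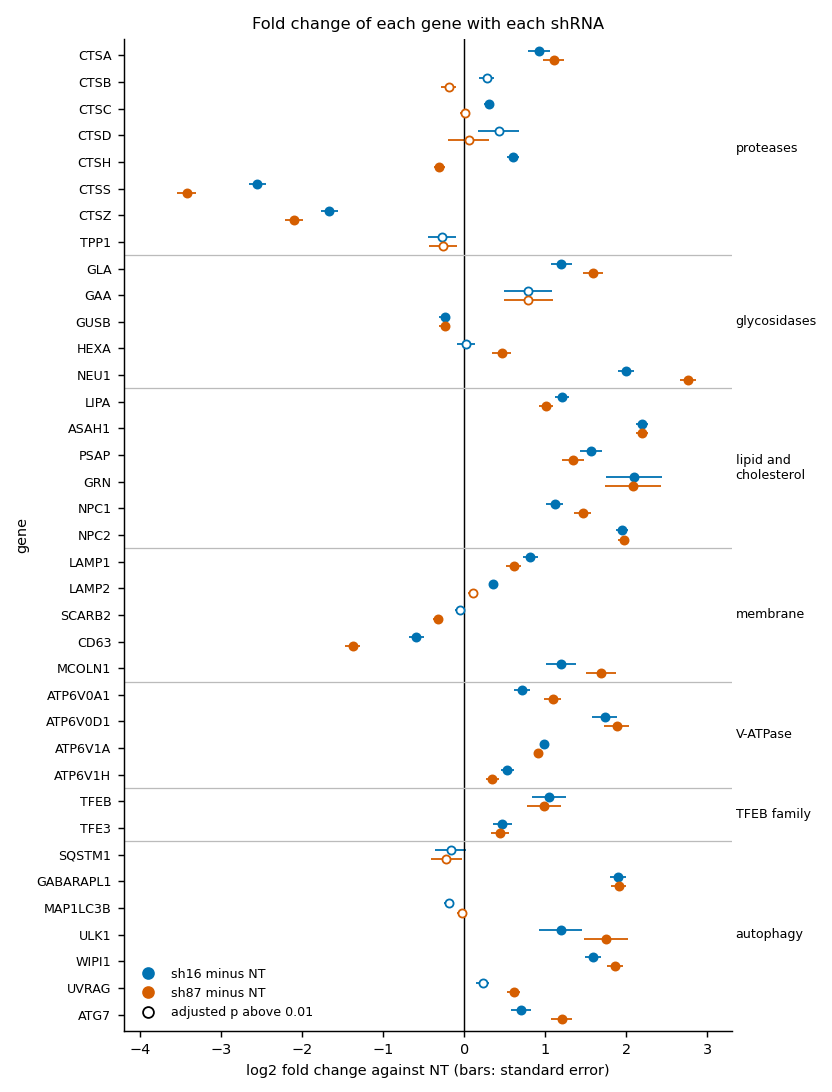
Log2 fold change of each of the 37 genes with sh16 and with sh87 against the same 3 NT libraries (points, with bars for the standard error; open points have an adjusted p above 0.01), ordered by role. ASAH1, NPC2, GRN and GABARAPL1 have nearly the same value with both shRNAs, NEU1 is higher with sh87 than with sh16, CTSS and CD63 are lower with it, and CTSH lies on either side of 0.

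The membrane proteins were mixed. LAMP1, a main glycoprotein of the lysosomal membrane, was at 118, 126 and 152 CPM in NT, at 235, 237 and 224 CPM with sh16 and at 192, 208 and 204 CPM with sh87, and rose without overlap (log2 fold change 0.72 ± 0.11, adjusted p = 0.000179). Its relative LAMP2, whose LAMP2A isoform serves chaperone-mediated autophagy, was at 101, 96.4 and 103 CPM in NT, at 131, 125 and 130 CPM with sh16 and at 105, 110 and 109 CPM with sh87. LAMP2 rose with sh16 (log2 fold change 0.36 ± 0.05, adjusted p = 0.000305), while with sh87 the log2 fold change was 0.11 (adjusted p = 0.105). With both shRNAs together it was 0.24 (adjusted p = 0.0445), and 0.63 after the length and GC correction (adjusted p = 0.000112), at a GC content of 36.0%. The changes of LAMP2 with sh16 or sh87 alone were not tested after that correction. Isoforms cannot be separated in counts per gene.

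MCOLN1, the lysosomal calcium channel TRPML1, was at 5.12, 5.98 and 8.71 CPM in NT, at 14.6, 16.9 and 14.1 CPM with sh16 and at 23.2, 21.7 and 19.3 CPM with sh87. It rose without overlap (log2 fold change 1.47 ± 0.22, adjusted p = 0.000185), and by 0.91 after the length and GC correction (adjusted p = 0.000474). CD63, a tetraspanin of late endosomes and exosomes, was at 45.8, 46.6 and 54.8 CPM in NT, at 31.1, 34 and 32.4 CPM with sh16 and at 20.4, 17.9 and 18.3 CPM with sh87. CD63 fell (log2 fold change -0.93 ± 0.22, adjusted p = 0.00328), and more with sh87 than with sh16 (difference -0.78 ± 0.10, adjusted p = 0.000577). Without NT replicate 2 or NT replicate 3 the adjusted p of the fall with both shRNAs was 0.0105 or 0.0123, although every knockdown library stayed below every NT library.

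SCARB2, the receptor that carries beta-glucocerebrosidase to lysosomes, was at 157, 153 and 168 CPM in NT, at 153, 154 and 156 CPM with sh16 and at 122, 134 and 127 CPM with sh87. Only with sh87 did the libraries lie apart from NT (log2 fold change -0.32 ± 0.06, adjusted p = 0.000996), and sh87 was lower than sh16 (-0.27 ± 0.06, adjusted p = 0.00914). With both together the log2 fold change was -0.18 (adjusted p = 0.135), and 0.11 after the length and GC correction (adjusted p = 0.286). The fall of SCARB2 with sh87 alone was not tested after that correction.

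All 4 V-ATPase subunits rose. ATP6V0D1, a subunit of the membrane sector, changed most, from 20, 25.8 and 33.2 CPM in NT to 87.5, 91.6 and 84.8 CPM with sh16 and 97.8, 94.4 and 101 CPM with sh87. Its log2 fold change was 1.81 ± 0.15 (adjusted p = 2.89e-06), and the lowest knockdown library was 2.55 times the highest NT library. ATP6V0A1, the proton-conducting a subunit, went from between 76.7 and 104 CPM in NT to between 150 and 203 CPM (log2 fold change 0.92 ± 0.15, adjusted p = 0.000248). ATP6V1A, the catalytic subunit that hydrolyses ATP, stood between 87.7 and 89.8 CPM in NT and between 161.2 and 180 CPM in the knockdown libraries (0.95 ± 0.07, adjusted p = 1.84e-06). ATP6V1H, a regulatory subunit, changed least, from between 48.4 and 57.7 CPM to between 63 and 77.9 CPM (0.44 ± 0.10, adjusted p = 0.00199), and its adjusted p was 0.0144 without NT replicate 2. None of the 4 overlapped with NT.

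Both TFEB family genes rose, but not after the length and GC correction. TFEB was at 5.72, 5.94 and 10.4 CPM in NT, at 15.7, 15.1 and 15.1 CPM with sh16 and at 16.2, 15 and 12.7 CPM with sh87 (log2 fold change 1.02 ± 0.19, adjusted p = 0.000801). All 6 knockdown libraries were above NT, and the lowest was 1.22 times the highest NT library. After the length and GC correction the log2 fold change of TFEB was 0.17 (adjusted p = 0.204), at a GC content of 64.7%. TFE3 was at 35.2, 40.5 and 50 CPM in NT, at 56.6, 59.9 and 57.8 CPM with sh16 and at 58, 56.2 and 56.9 CPM with sh87 (0.46 ± 0.11, adjusted p = 0.00301), also without overlap. The adjusted p of TFE3 was 0.0112 without NT replicate 1 and 0.018 without NT replicate 2, and after the length and GC correction its direction turned (-0.05, adjusted p = 0.505).

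Of the autophagy genes, GABARAPL1, a ubiquitin-like protein of the autophagosome membrane, was at 5.29, 6.33 and 5.64 CPM in NT, at 21.8, 21.9 and 20.5 CPM with sh16 and at 20.1, 21.7 and 22.9 CPM with sh87. It rose by 3.74-fold (log2 fold change 1.90 ± 0.11, adjusted p = 2.48e-07), with almost the same value for both shRNAs and no overlap with NT. WIPI1, which binds phosphoinositides on forming autophagosomes, was at 11.5, 9.02 and 10 CPM in NT, at 29.1, 31.8 and 31.1 CPM with sh16 and at 37.7, 34.9 and 38.7 CPM with sh87, and rose without overlap (1.73 ± 0.13, adjusted p = 1.88e-06). ULK1, the kinase that starts autophagy, was at 10.9, 17.8 and 28.1 CPM in NT, at 44.2, 42.2 and 43.8 CPM with sh16 and at 64.2, 65.6 and 61.8 CPM with sh87. It rose with a larger error (1.5 ± 0.29, adjusted p = 0.000824), and after the length and GC correction by 0.63 (adjusted p = 0.00266), at a GC content of 64.2%. ATG7, the activating enzyme of the LC3 and ATG12 conjugation systems, went from between 10.6 and 15.2 CPM in NT to between 19.5 and 31 CPM (0.97 ± 0.19, adjusted p = 0.000846).

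The remaining 3 autophagy genes did not pass the test with both shRNAs. SQSTM1 encodes p62, a cargo receptor that is itself degraded by autophagy as a protein. Its RNA was at 68.3, 98.6 and 133 CPM in NT, at 89.7, 89.2 and 89.2 CPM with sh16 and at 86.7, 87.7 and 83 CPM with sh87. The NT libraries thus spanned the knockdown libraries, and the log2 fold change was -0.19 ± 0.16 (adjusted p = 0.3). It was -0.42 without NT replicate 1 (adjusted p = 0.00672), 0.05 without NT replicate 3 (adjusted p = 0.715) and -0.51 after the length and GC correction (adjusted p = 0.000531). MAP1LC3B, the LC3 protein most used as an autophagosome marker, was at 68.7, 63.1 and 64.2 CPM in NT, at 57.3, 55.8 and 59.7 CPM with sh16 and at 63.9, 65.3 and 63.4 CPM with sh87 (-0.10 ± 0.08, adjusted p = 0.28, turning to 0.16 after the length and GC correction, adjusted p = 0.153). Its groups overlapped with sh87, and since MAP1LC3B2 is a near-identical copy in the table, reads may have been split between them. UVRAG, a subunit of a phosphatidylinositol 3-kinase complex, was at 31.4, 29.3 and 26.5 CPM in NT, at 33.3, 35.1 and 33.9 CPM with sh16 and at 43.7, 46.5 and 43 CPM with sh87. It rose with sh87 (0.61 ± 0.08, adjusted p = 9.28e-05), with sh16 the log2 fold change was 0.23 (adjusted p = 0.0274), and with both together it was 0.43 (adjusted p = 0.0145), or 0.62 after the length and GC correction (adjusted p = 0.00159).

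**Figure D4:**
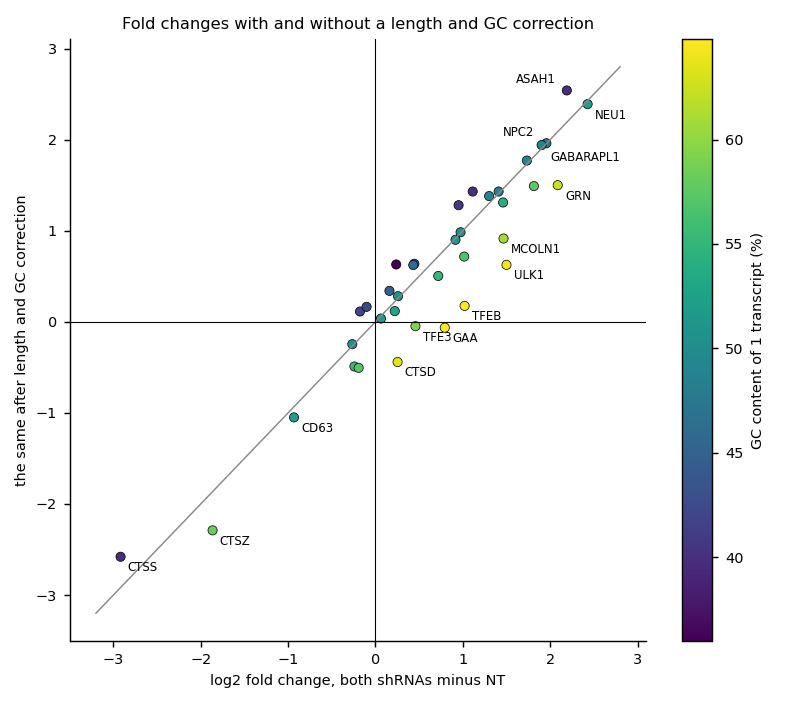
Log2 fold change of the 37 genes with both shRNAs against NT, without (horizontal axis) and with (vertical axis) the length and GC correction, coloured by the GC content of 1 transcript, with the line of equal values. Genes of high GC content such as TFEB, ULK1, GAA, CTSD and GRN lie below the line, and ASAH1, NEU1, NPC2, GABARAPL1, CTSS, CTSZ and CD63 keep large changes on both axes.

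Between the shRNAs, 2 of the 37 genes were higher with sh87 than with sh16 and 7 were lower, where 8.29% of all genes were higher and 9.42% lower. The 2 were NEU1 and UVRAG (difference 0.38 ± 0.08, adjusted p = 0.00701). The 7 were CTSB, CTSC, CTSH, CTSS, LAMP2, SCARB2 and CD63, that is 4 of the 8 proteases and 3 of the 5 membrane proteins, with differences from -0.91 for CTSH to -0.25 for LAMP2 (adjusted p = 0.00787). The median difference of the 37 genes was 0.00. The split of these calls depended on the processing, as did the share of all genes called. After the length and GC correction 9 were higher and 5 lower, where 13.8% and 13.9% of all genes were. With DESeq2 7 were higher and 8 lower, where 11.8% and 12.8% were. With RLE normalization 1 was higher and 5 lower, where 8.48% and 8.59% were. CTSH, CTSS, CD63 and NEU1 passed the test under every one of 20 alternatives, whereas CTSB, CTSC, LAMP2, SCARB2 and UVRAG each lost the call under 8 to 13 of them. For CTSC, LAMP2 and SCARB2 the length and GC correction was among these. The leukemic blast markers (557 to 579 CPM with sh16, 298 to 309 CPM with sh87) and the monocyte and macrophage markers also differed between the shRNAs, and their part in these differences was not tested. None of the 6 lipid and cholesterol genes, 4 V-ATPase subunits and 2 TFEB family genes was called between the shRNAs. This does not make their levels equal. The sh16 and sh87 libraries of NPC1, LIPA, PSAP, ATP6V0A1, ATP6V0D1 and ATP6V1H did not overlap, with an adjusted p of 0.0326 for NPC1 and 0.0197 for ATP6V0A1. The test shares its estimate of the spread with the NT libraries, which were less alike than the others.

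Other genes of the same pathways were taken from lists by function, and their counts with both shRNAs stand beside the 30.1% of all genes that rose and the 29.7% that fell. Values of these lists are without the length and GC correction. Of 28 further hydrolases and activators 12 rose (42.9%) and 7 fell (25%), with a median log2 fold change of 0.41. SCPEP1, a retinoid-inducible carboxypeptidase, rose from 0.692 ± 0.152 CPM in NT to 24.9 ± 1.5 CPM with sh16 and 23.9 ± 2.12 CPM with sh87 (SD, n = 3; adjusted p = 1.73e-08), while ARSB, the arylsulfatase that acts on dermatan sulfate, fell from 19.97 ± 2.46 to 3.25 ± 0.362 and 2.28 ± 0.249 CPM (adjusted p = 4.37e-07). Of 23 further membrane genes 13 rose (56.5%) and 3 fell (13%; median 0.61), with TMEM175, a potassium and proton channel, rising (2.39, adjusted p = 0.000115) and TMEM192 falling (-1.79, adjusted p = 1.64e-05). Of 15 further V-ATPase genes 8 rose (53.3%), among them ATP6AP2, the prorenin receptor (1.53, adjusted p = 4.19e-07), and ATP6V1G1 alone fell (6.67%; -0.55, adjusted p = 0.000845).

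Of 22 MiT family and nutrient sensing genes 10 rose (45.5%) and 7 fell (31.8%, close to the share of all genes; median 0.42). TFEC, a close relative of TFEB, fell, whereas TFEB and TFE3 rose without the length and GC correction but did not pass the test after it. It was at 145, 127 and 115 CPM in NT, at 11.2, 10.4 and 11.2 CPM with sh16 and at 3.45, 4.38 and 4.52 CPM with sh87, a log2 fold change of -4.09 ± 0.36 (adjusted p = 4.56e-06) with no overlap. FLCN, the folliculin that regulates TFEB and TFE3 through the Rag GTPases, rose (1.31, adjusted p = 0.000232). Of 33 further core autophagy genes 17 rose (51.5%) and 4 fell (12.1%; median 0.56), among them ATG2A, a lipid transfer protein, which rose (2.46, adjusted p = 9.01e-05), and VAMP8, a SNARE of autophagosome fusion, which fell (-2.17, adjusted p = 6.44e-05). Of 14 autophagy receptors 2 rose (14.3%) and 5 fell (35.7%; median -0.13). CCPG1, a receptor for the endoplasmic reticulum, fell from 771 ± 179 CPM in NT to 142 ± 8.63 CPM with sh16 and 136 ± 8.38 CPM with sh87.

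Of 22 genes of delivery to lysosomes 8 rose (36.4%) and 6 fell (27.3%), shares close to those of all genes (median 0.11). Of 14 genes of lysosome-related organelles 7 rose (50%) and 1 fell (7.14%; median 0.60). PMEL, the fibril protein of melanosomes, was close to absent in NT (0.150 ± 0.0757 CPM) and stood at 36.4 ± 1.01 CPM with sh16 and 46.5 ± 3.26 CPM with sh87 (adjusted p = 1.89e-08). Of 31 genes of the proteasome core, the other main route of protein breakdown, 6 rose and 6 fell (19.4% each), with a median of 0.03, close to the median of all genes.

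**Figure D5:**
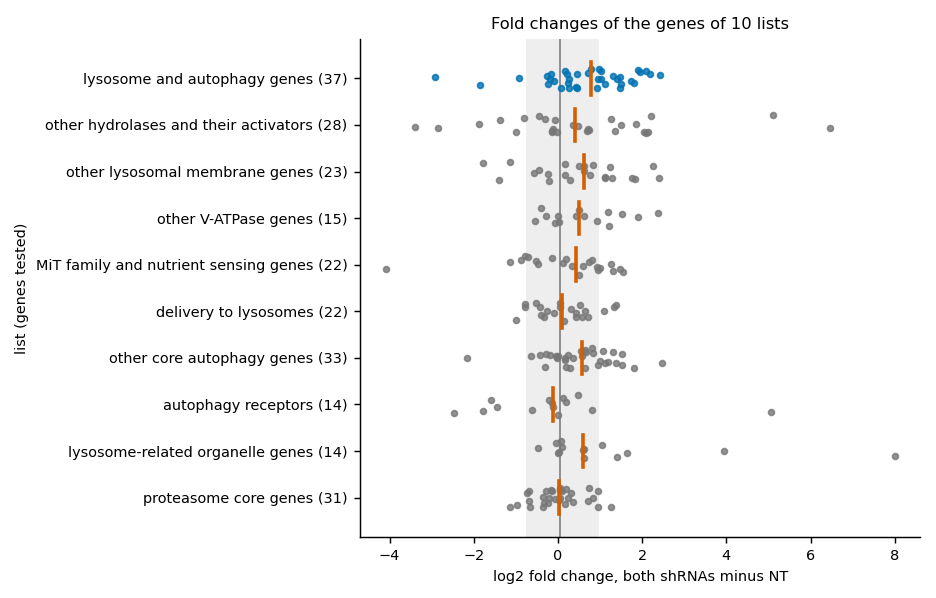
Log2 fold changes with both shRNAs against NT of the genes of 10 lists (1 point a gene, with the number tested in parentheses and vertical position within a list arbitrary), with the median of each list as a bar, the median of all 16312 genes as a grey line and the range between their quartiles, from -0.725 to 0.955, shaded. The 37 lysosome and autophagy genes have the highest median, 0.79, and the medians of the proteasome core genes (0.03) and autophagy receptors (-0.13) are the lowest, although single receptors lie far outside the shaded range, from CCPG1 at -2.47 to OPTN at 5.05. The genes and lists were chosen with earlier results of these data known, so this order is not an independent result.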

How the data were processed

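RNA of 9 HNT34 libraries (3 NT, 3 sh16, 3 sh87) was sequenced from a strand-specific polyA library. The authors deposited 1 table of estimated counts with a row per gene symbol and no normalization. Its header is shifted by 1 column against the values and names salmon output. The submitters' processing notes name FastQC 1.3, STAR and GRCh38, whereas the choice of the genes in the table is not given in the sources used here. All values were whole numbers, with 16612 genes and no unnamed gene. Depth was 17096170 to 43502389 counts per library, and 3 counts correspond to at most 0.164 CPM.

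Counts were tested in R 4.3.3 with edgeR 4.0.16 (filterByExpr, TMM, quasi-likelihood test, Benjamini-Hochberg adjustment over 16312 genes) at an adjusted p of at most 0.01. Both shRNAs against NT used a fit of 2 groups, and single shRNAs a fit of 3 groups. DESeq2 1.42.0, limma-voom (limma 3.58.1), RLE and upper-quartile normalization, other filters and thresholds, removal of 15 mitochondrial genes, a replicate block and each library left out were alternatives. A weight per group and a loess correction (span 0.5, degree 1) for length and GC content of 1 transcript per gene (GRCh37 reference, 13854 genes, all 37 described) were added after the data had been seen.

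The 38 genes and the other lists were chosen with earlier results of these data known. Log2 fold changes are given for all 37 genes, and values in every library for those called with each shRNA at a change of at least 2-fold, those called between the shRNAs, and TFEB, TFE3, LAMP1, SQSTM1, MAP1LC3B and MECOM. Named genes of other lists are among the 3 highest and 3 lowest called with each shRNA without overlap. On simulated counts for 14776 genes the fit of both shRNAs against NT recovered 77 of 100 genes changed by 1 on the log2 scale. It recovered 94 of 100 changed by 2, with 1 false call. The simulation gave the 3 groups the same spread, changed few genes and had no GC trend, unlike these libraries. Its recovery and false calls may therefore not hold for these data. Promoters were searched and figures drawn in Python 3.11.15 with matplotlib 3.10.9.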

Additional observations from a re-analysis of the deposited data

Results flagged for a closer look

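TFEB with sh87 replicate 3, at 12.7 CPM, stood apart from the other 5 knockdown libraries by Dixon's test at 95%. It was the only 1 of 37 genes with such a library. The test pooled the libraries of both shRNAs, whose levels overlapped for only 10 of the 37 genes. Its usual chance rate of about 1 in 20 therefore need not hold here.

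For 9 genes the direct test found a difference between sh87 and sh16. On the log2 scale, sh87 minus sh16 was -0.91 for CTSH, -0.88 for CTSS, -0.78 for CD63, -0.47 for CTSB, -0.30 for CTSC, -0.27 for SCARB2 and -0.25 for LAMP2. It was 0.77 for NEU1 and 0.38 for UVRAG.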

How the results depend on the processing

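With both shRNAs against NT, the count of genes that rose (21) stayed within 1.5 times under all alternatives but a threshold of 4-fold. That threshold left 3 of the 37 that rose and 1 that fell, where 1588 and 923 of all 16312 genes did. At 4-fold these genes thus rose no more often than all genes. The 3 that fell became 5 with all 9 libraries in a fit of 3 groups and 5 after the length and GC correction, and were 2 to 5 with a library left out (5 without NT replicate 1, 2 without NT replicate 2). The same correction lowered the median log2 fold change to 0.625, and with sh87 to 0.597. With sh16, 14 rose and 2 fell at 2-fold, where 3024 and 2527 of all 16312 genes did. At 4-fold 2 rose and 1 fell with sh16, where 1297 and 790 did. With sh87, 3 rose at 4-fold, where 1915 of all 16312 genes did. At 2-fold 3 fell with sh87, where 3239 did, and at 4-fold 2 fell, where 1164 did. With upper-quartile normalization 3 fell with sh87, where 29.8% of all genes did. That normalization moved the median of all genes from 0.05 to 0.16 (both shRNAs). Between the shRNAs, the genes higher with sh87 (2) numbered 7 at an adjusted p of at most 0.05, 7 with DESeq2, 9 after the length and GC correction, 1 with RLE normalization, 1 with a weight per group, 1 with a replicate block, 0 at 2-fold and 0 at 4-fold, and 1 to 9 with a library left out (8 without NT replicate 1, 9 without NT replicate 3). Those lower (7) numbered 4 with a weight per group, 3 with a replicate block, 0 at 2-fold and 0 at 4-fold, and 3 to 8 with a library left out (3 without any 1 of the sh16 or sh87 libraries). The shares of all genes moved as well, from 8.29% higher and 9.42% lower to 4.5% and 5.24% with a replicate block and 15.5% and 16.8% without NT replicate 3. At 2-fold, 444 of all 16312 genes were higher and 253 lower. The replicate numbers mark no stated pairing, and same-numbered libraries deviated with correlations of -0.137 to 0.0826; with the replicate block, 21 genes rose and 3 fell with both shRNAs. The cause of these changes was not tested.

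Directions turned for genes that had not been called, and for TFE3. After the length and GC correction the log2 fold change was -0.442 for CTSD, -0.0647 for GAA, 0.113 for SCARB2, -0.0483 for TFE3 and 0.164 for MAP1LC3B, which was 0.0091 with upper-quartile normalization. With a library left out it ran from -0.0472 to 0.128 for CTSB, from -0.0152 to 0.617 for CTSD and from -0.417 to 0.0506 for SQSTM1. Over all single-gene values, 863 kept direction and call, 59 lost and 26 gained a call and 9 turned. All contrasts with NT rest on the same 3 NT libraries, which differ among themselves in GC trend and mitochondrial share. Depth limited a level to 0.164 CPM at most, below every value of the 37 genes.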
